A study of Mus musculus with 4 samples.

Results

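The subject here is a set of 40 genes that neurons use widely: parts of the neuronal cytoskeleton, the machinery of synaptic vesicles and dense-core granules, adhesion molecules and RNA-binding proteins. The members were chosen by gene symbol from a list of such genes, drawn up with earlier results of these arrays known, and all 40 of the 22180 named genes were found on the arrays. RNA was hybridised to 4 Mouse Gene 2.0 ST arrays (Affymetrix), 1 per group. The groups were the wild-type head and the Tbx1 knockout (Tbx1KO) head at embryonic day (E) 12.5, and the palatal shelves of both genotypes at E13.5, all of mixed C57BL/6J x FVB/N background. Tbx1 is a T-box transcription factor of the pharyngeal region, and the palatal shelves are the outgrowths of the upper jaw that meet to form the secondary palate. The study asked which genes differ without Tbx1 in each tissue. The labels do not say which part of Tbx1 was deleted, or whether RNA of several embryos was pooled. On the arrays, the targeted Tbx1 read log2 6.83 (wild-type head), 6.25 (knockout head), 7.39 (wild-type shelves) and 6.18 (knockout shelves), so both knockout arrays had the lower value, by -0.57 in the head and -1.21 in the shelves.

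Neurons build long processes on microtubules made with neuron-rich tubulins and associated proteins, and stiffen axons with neurofilaments. At their endings, synaptic vesicles are held by synapsins and fuse through a complex of Snap25, syntaxin and Vamp2 that synaptotagmins switch on when calcium enters. Peptides and amines are packed with granins into dense-core granules. Many of these genes are held silent outside the nervous system by the repressor REST, which binds an element called RE1. The head contains the brain, whereas the palatal shelves are mainly mesenchyme under an epithelium and receive nerve fibres whose cell bodies lie elsewhere.

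Values are log2 expression after RMA, which sets the arrays to a common distribution, and a log2 difference of 1 is 2-fold. A gene entered a comparison when the higher of its 2 arrays reached log2 6.16, the median of all gene levels on the arrays. A difference inside a pair of single arrays lacks any replicate check. It is given without a p-value, and precision is limited by the number of arrays. As a scale for noise, the differences given by a pair of transcript clusters of 1 gene disagreed by an SD of 0.175 per cluster in the head and 0.226 in the shelves. Levels of different genes are not compared, because probes differ in how well they bind.

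For 27 of the 40 genes RefSeq promoter windows (GRCm38.p6, 250 bases before to 50 after the start of transcription) were matched. Those of 5 genes are shown because their differences in the shelves, given further on, range from the highest among the members (Tmem130) to one below 0 (Chga), and because some hold elements known from neuronal and granule genes. Bases are in lower case, with RE1, the cyclic AMP response element (CRE) and the TATA box in capitals. They lie at chrX:20920869-20921168 (minus strand) for Syn1, chr2:132781392-132781691 (plus strand) for Chgb, chr1:79439977-79440276 (minus strand) for Scg2, chr12:102554691-102554990 (plus strand) for Chga and chr5:144761529-144761828 (minus strand) for Tmem130.
Syn1: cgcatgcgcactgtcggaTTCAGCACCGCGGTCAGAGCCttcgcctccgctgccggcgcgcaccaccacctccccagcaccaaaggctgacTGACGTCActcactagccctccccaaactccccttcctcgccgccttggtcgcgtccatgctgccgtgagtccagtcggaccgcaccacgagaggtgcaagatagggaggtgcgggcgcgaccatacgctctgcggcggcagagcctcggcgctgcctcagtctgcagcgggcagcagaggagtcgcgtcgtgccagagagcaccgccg
Chgb: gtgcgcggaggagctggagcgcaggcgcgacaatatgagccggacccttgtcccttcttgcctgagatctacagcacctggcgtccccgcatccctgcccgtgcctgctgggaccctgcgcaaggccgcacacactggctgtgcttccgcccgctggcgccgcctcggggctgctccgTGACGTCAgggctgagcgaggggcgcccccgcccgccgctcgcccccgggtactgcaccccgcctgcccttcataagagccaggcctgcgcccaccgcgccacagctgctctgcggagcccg
Scg2: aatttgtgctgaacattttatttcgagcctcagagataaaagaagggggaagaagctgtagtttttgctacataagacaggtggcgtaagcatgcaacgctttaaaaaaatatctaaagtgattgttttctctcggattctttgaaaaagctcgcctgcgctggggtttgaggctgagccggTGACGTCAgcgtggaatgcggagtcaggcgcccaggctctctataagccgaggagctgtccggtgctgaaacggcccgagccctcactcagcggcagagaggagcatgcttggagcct
Chga: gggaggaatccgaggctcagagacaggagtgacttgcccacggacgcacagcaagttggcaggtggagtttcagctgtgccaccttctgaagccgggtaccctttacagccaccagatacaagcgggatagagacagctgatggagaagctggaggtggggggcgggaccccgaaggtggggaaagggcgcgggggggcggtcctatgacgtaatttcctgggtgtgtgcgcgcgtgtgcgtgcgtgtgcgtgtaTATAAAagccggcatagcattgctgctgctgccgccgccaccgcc
Tmem130: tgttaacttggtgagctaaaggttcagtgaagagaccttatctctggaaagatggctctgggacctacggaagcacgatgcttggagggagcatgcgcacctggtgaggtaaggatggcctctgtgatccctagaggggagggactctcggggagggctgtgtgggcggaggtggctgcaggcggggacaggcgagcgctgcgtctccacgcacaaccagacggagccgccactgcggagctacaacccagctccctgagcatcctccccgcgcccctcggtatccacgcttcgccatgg

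Counting from the start of transcription as 0, the Syn1 window held an RE1 from -232 to -212 with 1 mismatch and a CRE from -159 to -152. The CRE of Chgb lay from -72 to -65 and that of Scg2 from -68 to -61. Chga held a TATA box from 5 to 10 and Tmem130 none of the 3 motifs. The Chga window also holds tgacgtaa, 1 base from the CRE searched, which the exact search did not count. RE1 was searched by its consensus with up to 4 mismatches at its 18 fixed positions. CRE was searched as TGACGTCA and the TATA box as TATAAA, without mismatch, and each motif on both strands. No matched RE1, CRE or TATA box overlapped in the windows shown. Of the 49 windows of members, 2 held RE1 (4.08% against 0.575% of all 32851 windows), Syn1 with 1 mismatch and Cntn2 with 4, the most allowed. CRE was in 7 windows (14.3% against 1.79%) and the TATA box in 7 (14.3% against 13.6%). Some genes have several overlapping windows. By gene, CRE was in 5 of 27 members (Syn1, Chgb, Scg2, Kif5c and Celf3), 18.5% against 2.03% of 27025 genes. These are matches of letters, and no binding was measured.

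The 40 genes were read far more strongly in the head than in the palatal shelves. In wild type, 40 of 40 were higher in the head, where 46.7% of 22180 genes were, and 30 of the 37 that entered were at least 2-fold higher, against 5.27% of all 11765 genes that entered. Of the 37, 11 entered through the head array alone, and of the 26 above the level for entry on both arrays 19 were at least 2-fold higher, against 2.96% of genes. Between the knockout arrays, 24 of 38 were at least 2-fold higher in the head, against 4.06% of 11661 genes, and 22 of the 35 above the level for entry on both arrays, against 2.7%. In an additive limma fit of tissue and genotype over all 4 arrays and 11999 genes, 35 of 38 members were higher in the head at an adjusted p of 0.05, against 14.9% of all genes, and 0 were lower, against 13.0%. The median of the fitted head minus shelf differences was 1.64 on the log2 scale over the 38 members and 0.020 over all genes tested. Vamp2, the vesicle SNARE that also serves exocytosis outside neurons, was at -0.074 (SE 0.11, limma adjusted p = 0.66), Scg2 at 0.23 (SE 0.16, limma adjusted p = 0.332) and the neuronal Ras-like GTPase gene Rit2 at 0.94 (SE 0.31, limma adjusted p = 0.0667). These 3 were the members that did not pass. The fit has 1 residual degree of freedom, so its errors lean on a prior that limma estimated (5.49 degrees of freedom). Its p-values describe the spread between these 4 arrays, which may be technical. Stage differs along with tissue, and their parts cannot be told apart.

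Cntn2, an axonal adhesion molecule of early projecting neurons, had the smallest adjusted p for tissue among members. Its log2 levels were 9.32 in the wild-type head and 9.11 in the knockout head, and 6.42 in wild-type and 6.65 in knockout shelves. The fitted difference was 2.68 (SE 0.13, limma adjusted p = 9.24e-05). Scg3, a granin of dense-core granules, had the widest fitted difference of the 38 members, 2.73 (SE 0.28, limma adjusted p = 0.00077). The plot of levels on the 4 arrays shows head and shelf values apart for most members.

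**Figure D1:**
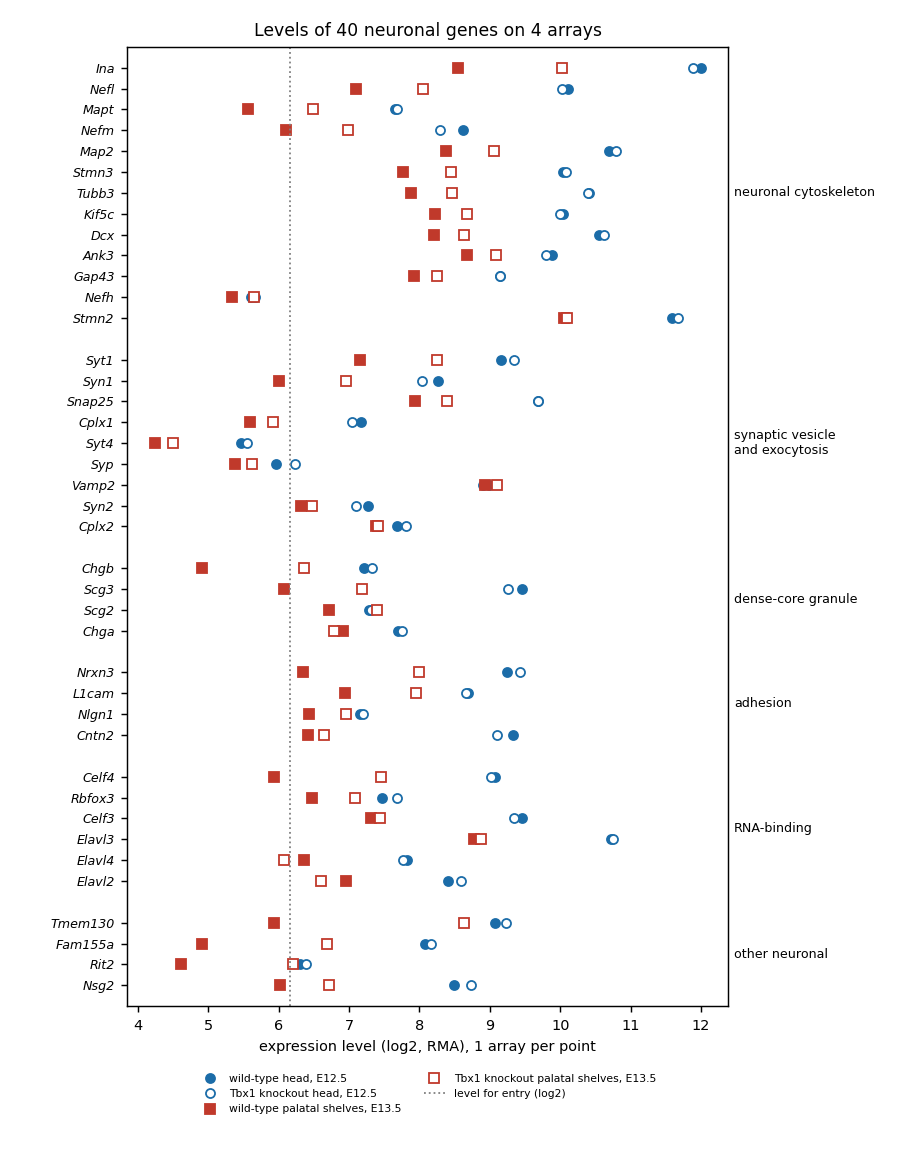
Expression level (log2, RMA) of each of the 40 genes on the 4 arrays, grouped by role, with 1 point per array and a dotted line at the level for entry (6.16). Circles (head) lie to the right of squares (shelves) for most genes, filled and open circles lie close together, and open squares (knockout shelves) lie right of filled squares for 37 of 40 genes.

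In the E12.5 head, the knockout and wild-type arrays had similar levels of these genes. None of the 38 members that entered was 2-fold or 1.5-fold different in either direction, where 0.0352% of all 11364 genes were 2-fold higher and 0.0528% 2-fold lower (at 1.5-fold, 0.106% and 0.352%). The differences (knockout minus wild type) ran from -0.33 for Nefm, the medium neurofilament chain, to 0.28 for Syp, the vesicle membrane protein synaptophysin. Their median was 0.027, with 22 above 0 (44.5% of all genes) and 16 below, beside a median of -0.017 over all genes. Summed on the linear scale, the 40 genes gave 27799 in the wild-type head and 27782 in the knockout head, a ratio of 0.999.

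Most of these genes had higher levels on the knockout than on the wild-type array of the E13.5 palatal shelves. Over all 40 members without any filter, 37 were above 0, where 48.6% of all 22180 genes were, and 9 were at least 2-fold higher, where 0.316% of genes were. The median difference was 0.55, beside -0.0068 over all genes. With the filter 36 members entered and 33 were above 0 (55.2% of 11449 genes). Of these, 9 were at least 2-fold higher, against 0.463% of genes, and 0 were 2-fold lower, against 0.472%. Since the list was drawn up with earlier results known, these shares describe the members and are no test of them. At 1.5-fold, 19 were higher, against 1.91% of genes. Of the 36, however, 10 entered through the knockout array alone and so had to be higher there, and 1, Elavl4, through the wild-type array alone. Among the 25 members above the level for entry on both shelf arrays, 23 were above 0 (55.6% of 10686 genes), 3 were at least 2-fold higher (0.187% of genes) and the median was 0.45, beside 0.021 over all such genes. Syt4, Nefh, Syp and Cplx1 did not enter, with differences from 0.24 to 0.34. The histogram of differences shows the members beside all genes in each tissue.

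**Figure D2:**
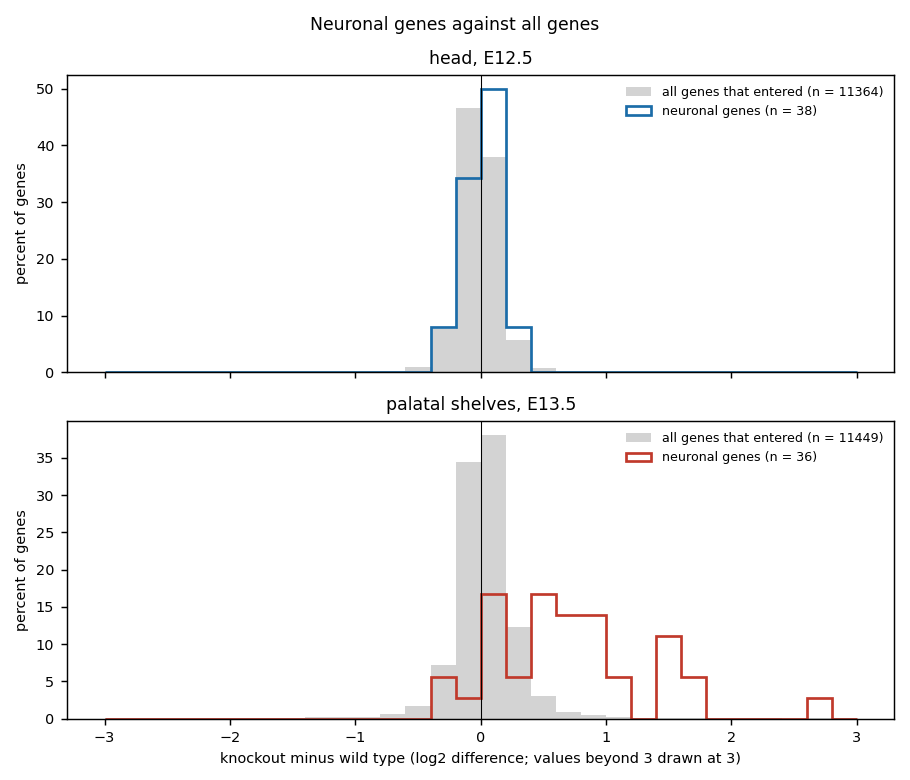
Share of genes (percent) by knockout minus wild-type log2 difference, in the head (top) and the palatal shelves (bottom). Grey bars are all genes that entered (11364 and 11449) and outlines are the neuronal genes (38 and 36), which sit around 0 in the head and reach from -0.35 to 2.70 in the shelves.

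Summed on the linear scale, the 40 genes gave 6891 in wild-type and 10296 in knockout shelves, a ratio of 1.49. For a typical member that entered, the wild-type shelves were at 24.2% of the wild-type head level and the knockout shelves at 39.6% (medians over 36 genes). For 31 of the 36, the knockout shelf level lay between the wild-type shelf level and both head levels, as it did for 21.0% of 11449 genes. The 10 that entered through the knockout array alone are among the 36, and of the 25 above the level for entry on both shelf arrays 21 lay between (20.7% of 10686 genes). The head minus shelf and knockout minus wild-type comparisons share arrays, so their values are given side by side and not as separate evidence. The number of nerve cells or fibres in a sample and the RNA of each cannot be told apart in such bulk tissue.

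Over both tissues together no member passed for genotype. In the additive limma fit, 0 of 38 members had an adjusted p of 0.05 or lower for knockout against wild type, as did 0 of 11999 genes (0.0%). The smallest adjusted p of a member was 0.919, and 11 of 38 had an unadjusted limma p under 0.05, all of them higher in the knockouts (3.0% of all genes were higher and 2.23% lower). That count of 11 ran from 3 to 20 over 9 alternative fits, for which the unadjusted shares over all genes were not computed. A difference present in the shelves and not in the head counts as noise in the additive fit. Whether the tissues differ in the effect of genotype could not be tested, since no degree of freedom remains.

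**Figure D3:**
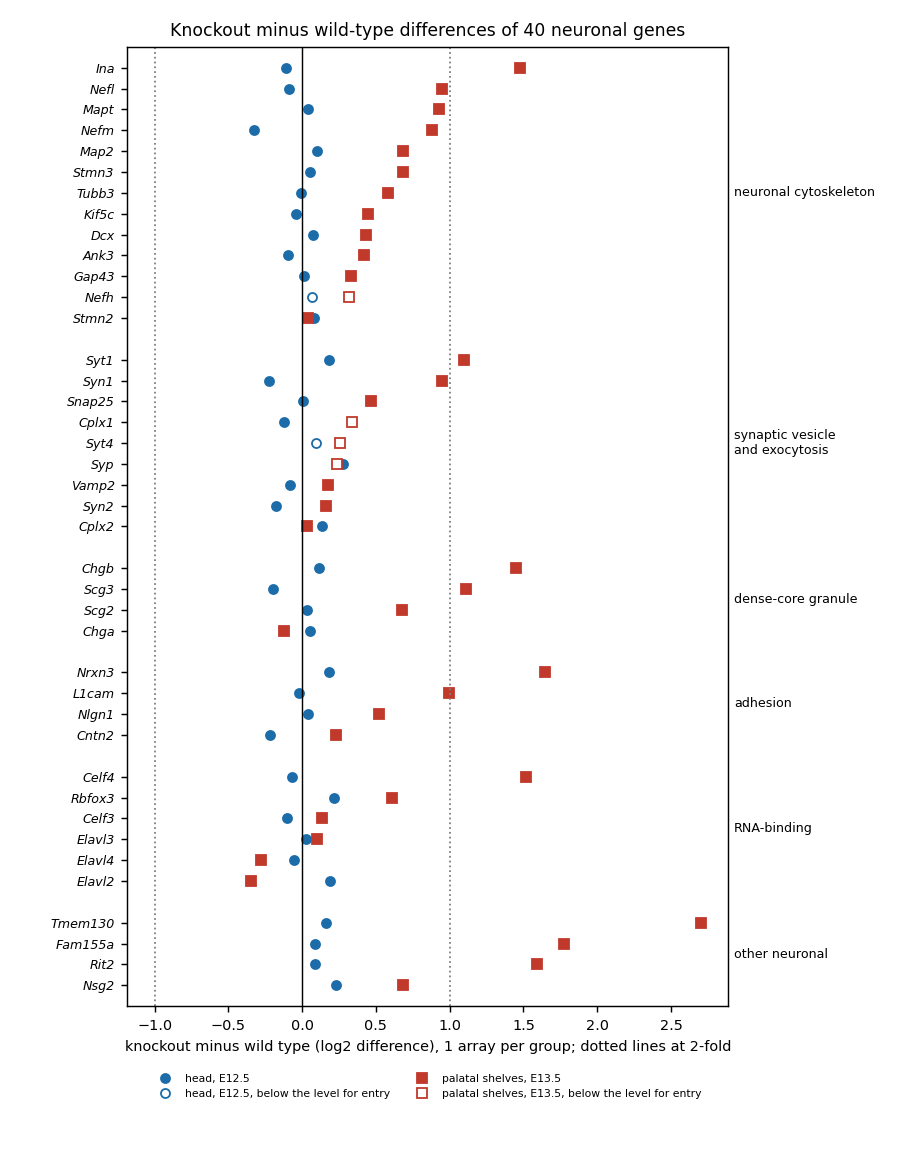
Knockout minus wild-type log2 difference of each of the 40 genes in the head (circles) and the palatal shelves (squares), grouped by role, with dotted lines at 2-fold and open symbols for genes below the level for entry. Head values stay between -0.33 and 0.28, and 9 shelf values lie beyond 1, from Syt1 (1.09) to Tmem130 (2.70).

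Of the 4 members outside the other role groups, 3 took ranks 1, 2 and 4 of the 36 shelf differences. Tmem130, a transmembrane protein, stood at 9.07 in the wild-type head, 9.23 in the knockout head, 5.93 in wild-type shelves and 8.63 in knockout shelves. The knockout shelf level was thus 6.50-fold above wild type and 73.6% of the wild-type head level, from 11.3% in wild-type shelves. Fam155a, an auxiliary protein of the sodium leak channel NALCN, was at 8.07 and 8.16 in the wild-type and knockout heads, and at 4.91 and 6.68 in the wild-type and knockout shelves (3.43-fold). Rit2 was at 6.31 and 6.40 in the heads and at 4.61 and 6.21 in the shelves (3.01-fold), so that its knockout shelf level was 93.1% of the wild-type head level. Nsg2, a protein of endosomal sorting in neurons, was at 8.50 and 8.73 in the heads and at 6.03 and 6.71 in the shelves. It was 1.61-fold higher in knockout shelves and reached 29.0% of the wild-type head level. All 4 genes were below the level for entry in wild-type shelves and entered through the knockout array alone, and folds are less exact at such levels.

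Of the cytoskeletal genes, Ina had the highest shelf difference. All 12 that entered were above 0 in the shelves (55.2% of all genes), with a median of 0.63 and 1 at least 2-fold higher (0.463%). Of these, Nefm and Mapt entered through the knockout array alone and so had to be higher there. The median in the head was 0.0020. Ina, the filament protein alpha-internexin of young neurons, was at 12.00 and 11.88 in the wild-type and knockout heads and at 8.54 and 10.02 in the wild-type and knockout shelves. That is 2.78-fold higher in knockout shelves, from 9.14% to 25.4% of the wild-type head level. Its partners, the light and medium neurofilament chains Nefl and Nefm, were higher by 0.95 and 0.88 on the log2 scale. The heavy chain Nefh, which is made as axons mature, lay between 5.33 and 5.67 on the 4 arrays and entered no comparison.

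The microtubule genes differed less evenly. Tubb3, the neuronal beta-tubulin used as a marker of young neurons, was at 10.40 on both head arrays, at 7.88 in wild-type shelves and at 8.46 in knockout shelves, a log2 difference of 0.58. The microtubule-associated genes Mapt (tau), Map2 and Dcx (doublecortin) were higher by 0.93, 0.68 and 0.43. Of the stathmins, which bind free tubulin, Stmn3 was higher by 0.68, with levels of 7.77 and 8.45 in the shelves. Its relative Stmn2 differed by 0.042, with 11.59 and 11.67 in the heads and 10.06 and 10.10 in the shelves. Kif5c, a kinesin heavy chain of axonal transport, was higher by 0.45, Ank3, the ankyrin of the axon initial segment, by 0.42, and the growth cone protein gene Gap43 by 0.33.

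The synaptic vesicle genes ranged in the shelves from Syt1, at 1.09, to Cplx2, at 0.035. Of 9, 6 entered in the shelves, with a median of 0.32 and 6 above 0 (55.2% of all genes). Among them, Syn1 entered through the knockout array alone and so had to be higher there. The median in the head was -0.039 over 8. Syt1, the calcium sensor of fast release, was at 9.16 and 9.34 in the heads and at 7.16 and 8.26 in the shelves, 2.13-fold higher in the knockout. Syn1, the synapsin whose promoter holds the RE1, was at 8.26 and 8.04 in the heads and at 6.01 and 6.96 in the shelves, 1.93-fold higher, whereas its relative Syn2 was at 6.32 and 6.48 in the shelves (0.16). Snap25, the target-membrane SNARE of release, was higher by 0.46. Vamp2 was at 8.98 and 8.90 in the heads and at 8.93 and 9.11 in the shelves, and Cplx2, a complexin that clamps the SNARE complex, at 7.68, 7.81, 7.38 and 7.41 in the same order. Head and shelf values overlapped for Vamp2, and both head values of Cplx2 lay above both shelf values.

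Syt4 and Syp each had several transcript clusters that disagreed. The brightest of the 3 clusters of Syt4, a synaptotagmin of dense-core granules, read 8.31 and 8.30 in the heads and 5.53 and 6.37 in the shelves, a difference of 0.84. The other clusters of Syt4 stayed at 5.14 or lower on every array, so that the mean did not enter. The brighter of the clusters of Syp differed by 0.43 in the shelves and the dimmer by 0.046. Cplx1, the other complexin, was at 7.16 and 7.04 in the heads and at 5.59 and 5.92 in the shelves.

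The granins of dense-core granules ranged in the shelves from 1.45 for Chgb to -0.13 for Chga. Chgb (chromogranin B) was at 7.21 and 7.32 in the heads and at 4.92 and 6.37 in the shelves, 2.73-fold higher in the knockout. Scg3, which anchors granins to the granule membrane, was at 9.46 and 9.26 in the heads and at 6.07 and 7.19 in the shelves, 2.16-fold higher. Chgb and Scg3 entered through the knockout array alone and so had to be higher there. Scg2 was at 7.28 and 7.31 in the heads and at 6.72 and 7.40 in the shelves, so that the knockout shelf level was 109% of the wild-type head level. Chga (chromogranin A) was at 7.70 and 7.75 in the heads and at 6.91 and 6.78 in the shelves, a difference of -0.13 that is smaller than the SD of 0.226 per cluster.

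The 4 adhesion genes were all above 0 in the shelves (55.2% of all genes), with a median of 0.76. Nrxn3, a presynaptic neurexin, was at 9.25 and 9.43 in the heads and at 6.35 and 7.99 in the shelves, 3.12-fold higher in the knockout and above the level for entry on every array. L1cam, an adhesion molecule of growing axons, lay just under the 2-fold limit, at 8.69 and 8.67 in the heads and 6.95 and 7.95 in the shelves (2.00-fold, log2 difference 0.998). Syt1 (1.09) lay just inside it. Nlgn1, a postsynaptic neuroligin that binds neurexins, was at 7.16 and 7.20 in the heads and at 6.44 and 6.96 in the shelves. Cntn2 differed by 0.23 in the shelves, close to the SD per cluster.

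The neuronal RNA-binding genes had the lowest median of the 6 role groups in the shelves, 0.12, and held 2 of the 3 members below 0. In this group Celf4 entered through the knockout array alone and Elavl4 through the wild-type array alone, which fixed their signs. Celf4, which binds and regulates mRNAs of neurons, was at 9.08 and 9.01 in the heads and at 5.93 and 7.45 in the shelves, 2.87-fold higher in the knockout. Its relative Celf3 was at 7.31 and 7.45 in the shelves, a difference of 0.13. Rbfox3, the antigen NeuN of maturing neurons, was higher by 0.61.

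The Elav genes, which stabilise neuronal mRNAs and mark cells that have just become neurons, were not higher as a family in knockout shelves. Elavl3 was at 10.72 and 10.75 in the heads and at 8.77 and 8.87 in the shelves, a difference of 0.098. Elavl2 was at 8.41 and 8.60 in the heads and at 6.95 and 6.61 in the shelves, a difference of -0.35, and Elavl4 at 6.36 and 6.08 in the shelves, one of -0.28. Relative to the wild-type head, Elavl2 stood at 36.5% in wild-type shelves and 28.6% in knockout shelves, and Elavl4 at 36.2% and 29.8%. The plot of shelf levels relative to the head shows the members side by side.

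**Figure D4:**
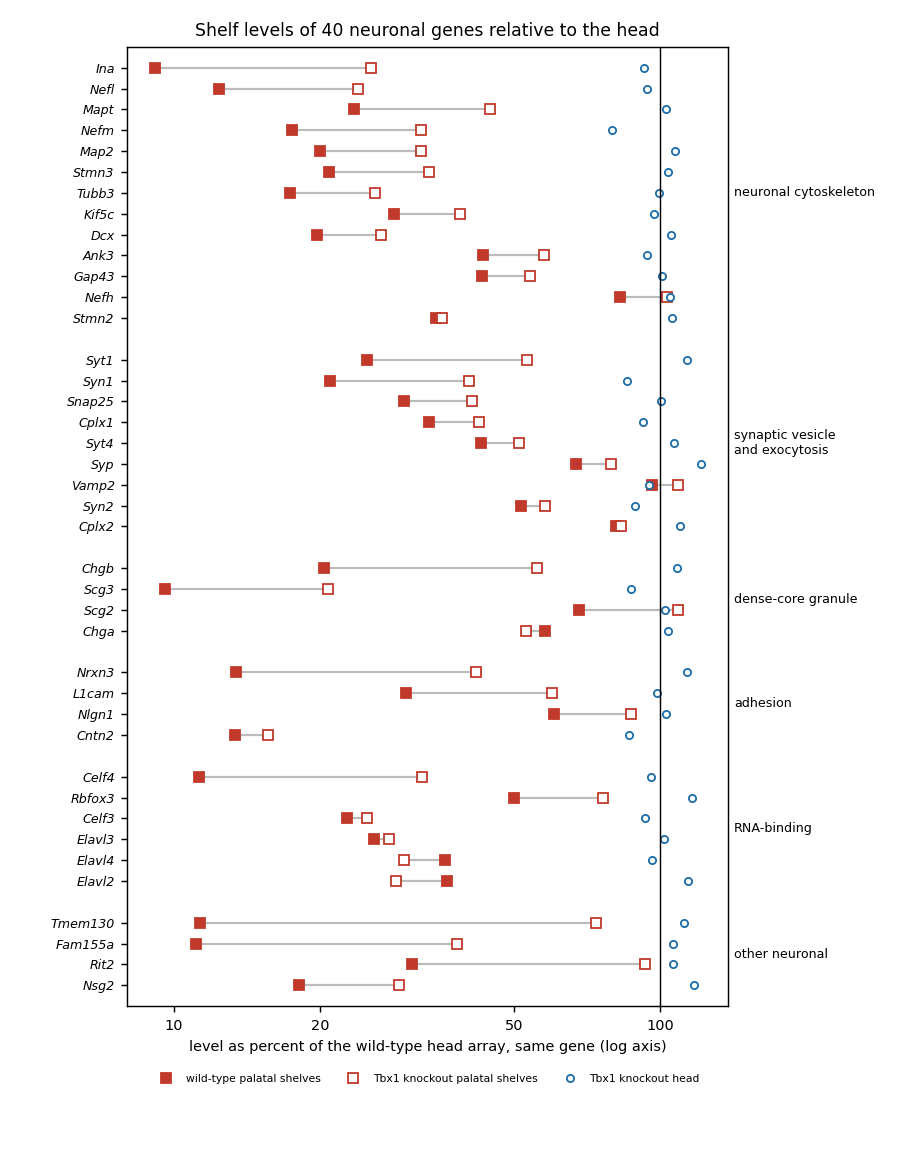
Level of each of the 40 genes as percent of its own level on the wild-type head array (log axis), for wild-type shelves (filled squares), knockout shelves (open squares) and the knockout head (circles). Tmem130 goes from 11.3% to 73.6% in the shelves and Stmn2 from 34.5% to 35.5%, while Elavl2, Elavl4 and Chga have the lower value in the knockout.

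Further neuronal genes outside the 40 were read by the same roles. Of 23 other cytoskeletal and transport genes, 22 entered in the shelves, 20 were above 0 and the median was 0.23, led by Tubb4a, a neuronal beta-tubulin (6.62 in wild-type and 8.21 in knockout shelves), and Crmp1, a mediator of semaphorin signals (1.07). Of 13 other adhesion genes 12 were above 0, at a median of 0.38, led by Nrcam (1.38) and Chl1 (1.10), relatives of L1cam. Of 19 other genes of vesicles and release 14 were above 0, at a median of 0.25, and the vesicular glutamate transporter gene Slc17a6 was the highest of them at 0.84. Of other RNA-binding genes, Nova1, a splicing regulator of neurons, was at 6.07 and 7.62 in the shelves (1.55), but the median over 6 was 0.054. Genes of granule cargo and processing had a median of 0.075 over 4, with the convertase chaperone gene Scg5 at 0.71. Over all genes that entered, 55.2% were above 0 in the shelves. Map6, Nrcam, Lrrtm2, Dscam, Unc13a, Sv2a, Rims1, Rims2, Slc17a6, Nova1 and Scg5 entered through the knockout array alone and so had to be higher there. Vamp1 and Srrm3 entered through the wild-type array alone. In the additive limma fit none of these 5 lists had a gene with an adjusted p of 0.05 or lower for genotype, and of 68 genes tested 10 were higher (3.0% of all genes) and 2, Vamp1 and Srrm3, lower (2.23%) at an unadjusted limma p under 0.05. For tissue, 59 of the 68 tested genes of these lists were higher in the head at a limma adjusted p of 0.05 (14.9% of all genes) and 3 were lower (13.0%).

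Relatives of the members that were listed as broadly expressed differed little between the shelf arrays. Not all of them were even between tissues, since Nsg1, Ank2 and Celf2 had fitted head minus shelf differences of 0.89, 0.81 and 0.70. Of 20 such genes, 19 entered, their median was 0.050, and the values ran from -0.25 (Vamp8) to 0.42 (Syt7). Celf2 did not enter, at 5.35 in wild-type and 5.85 in knockout shelves (0.50). Side by side, the shelf difference was 0.58 for Tubb3 and 0.10 for Tubb5, 0.46 for Snap25 and 0.21 for Snap23, and 0.45 for Kif5c and -0.16 for Kif5b. It was 1.52 for Celf4 and -0.076 for Celf1, 0.61 for Rbfox3 and 0.038 for Rbfox2, and 1.59 for Rit2 and -0.14 for Rit1. Map2 was at 0.68 and Map4 at 0.085, and Nsg2 at 0.68 and Nsg1 at 0.094. Celf4, Rit2 and Nsg2 entered through the knockout array alone and so had to be higher there. The values lay close for Vamp2 (0.18) and Vamp3 (0.14), and for Elavl3 (0.098) and Elavl1 (0.0073). Close relatives such as the tubulins can share probe signal. Of 13 entering genes that control neuronal expression, 7 were above 0 in the shelves (55.2% of all genes) and 6 below, with a median of 0.039. Rest was at 7.83 and 7.78 in the shelves (-0.052). The neuronal factors Myt1 and St18 were higher by 0.81 and 0.60, but both entered through the knockout array alone and so had to be higher there. Insm1, a factor of newly formed neurons and neuroendocrine cells, was at -0.60.

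Markers of other cells moved beside the shelf difference, and their part in it was not tested. Of 12 entering markers of hypothalamic and inhibitory forebrain neurons, 10 were above 0 in the shelves (55.2% of all genes). However, Nkx2-1, Six6, Gad1, Gad2, Calcr and Glra2 entered through the knockout array alone and so had to be higher there. Of the rest, Dlx2, Lhx6, Lhx8 and Isl1 were above 0 and Dlx5 and Dlx6 below. Glra2, a glycine receptor subunit, was at 4.41 in wild-type and 6.30 in knockout shelves. Six6, a factor of hypothalamus and eye, was at 5.68 and 6.85, while Dlx6 differed by -0.63. Over the 13 genes of the list the summed linear level was 2811 in wild-type and 3527 in knockout shelves. Of that sum 2252 and 2641 came from Dlx2, Dlx5, Lhx6 and Lhx8, and 559 and 885 from the other 9 genes. Facial mesenchyme also expresses those 4 genes, which were picked out after their values were seen. Whether the other 9, which include Dlx6 and Isl1, are free of signal from facial mesenchyme was not tested. Lhx6 and Lhx8 were higher in shelves than in head, by limma at -1.09 (adjusted p = 0.00147) and -1.63 (adjusted p = 0.000179) for head minus shelves. Neural progenitor markers summed to 2539 and 2192. Of 9 that entered, 3 were above 0 (55.2% of all genes) and 6 below, with a median of -0.38. The values ran from Emx2, at -1.19, to Sox1, at 1.15. Sox1 and Sox3 entered through the knockout array alone, and Emx2 and Neurog1 through the wild-type array alone, which fixed their signs. Markers of olfactory and vomeronasal neurons other than Gap43 summed to 1073 and 662, with Gng8 at -1.22, and the defining gene Omp was below the level for entry on all 4 arrays. Cranial sensory and autonomic markers summed to 1522 and 1571, with Avil, Dbh and Tlx3 below the level for entry on all 4 arrays. Runx1 weighed most in that sum, at 9.12 and 8.98 in the shelves, and was lower in the heads, at 7.21 and 7.45. Of the markers of excitatory forebrain neurons, 2 entered, Bcl11b (0.021) and, through the knockout array alone, Fezf2 (0.55). Their list summed to 613 and 632, with Bcl11b (8.42 and 8.44) weighing most. Among those that did not enter, Tbr1 and Neurod6 were above 0 and Neurod2, Eomes, Slc17a7 and Reln below. Schwann cell and crest markers summed to 1212 and 1052. Fabp7 (9.01 and 8.63 in the shelves) is in this list and the progenitor list, and Lhx2 (8.52 and 7.79) in the progenitor and olfactory lists. Those sums are thus not separate from each other. Pituitary markers summed to 311 and 310, with Cga, Pomc, Hesx1, Lhx3 and Tshb below the level for entry on all 4 arrays. Skeletal muscle markers summed to 2913 and 1424 and hypoxia-responsive genes to 3471 and 5654. Palatal mesenchyme markers summed to 7666 and 8509. Of these, 8 of 9 were higher in shelves than head at a limma adjusted p of 0.05 (13.0% of all genes), Osr1 being the exception. The plot of list medians sets these lists beside the members.

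**Figure D5:**
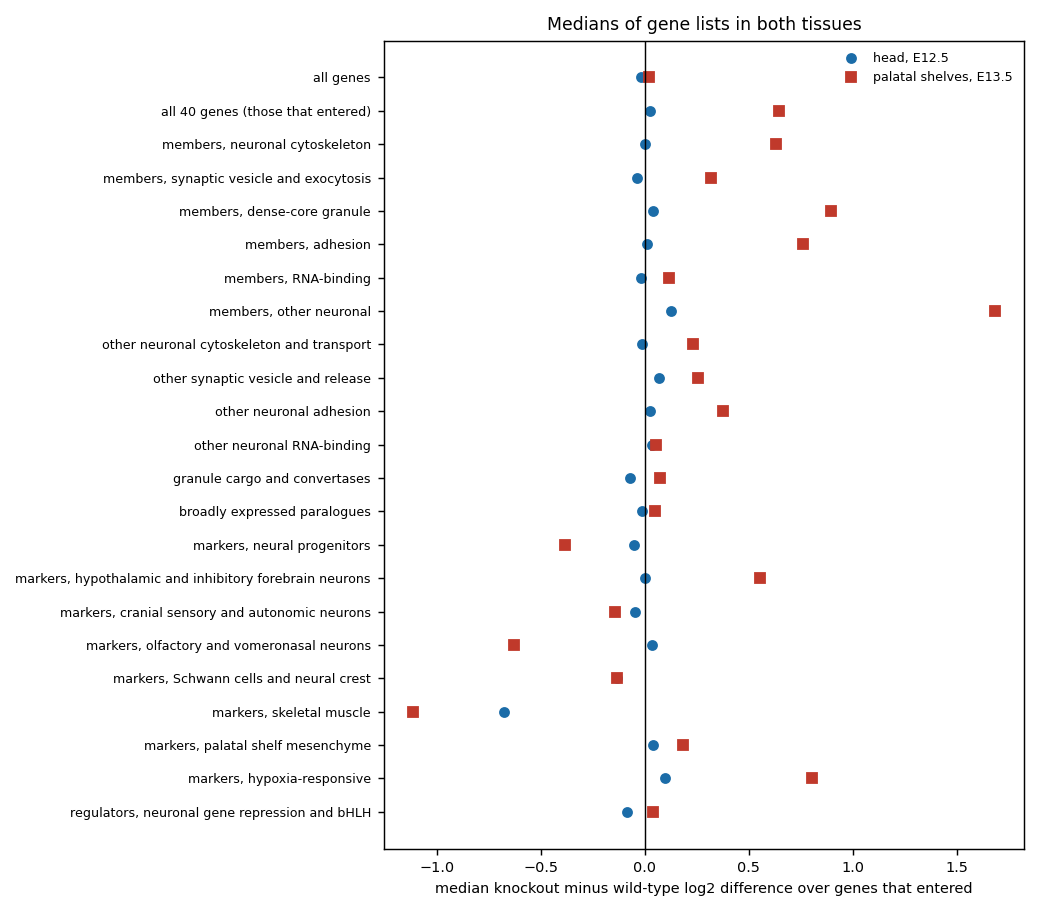
Median knockout minus wild-type log2 difference of each gene list over its genes that entered, in the head (circles) and the palatal shelves (squares), for lists with at least 3 entering genes in both tissues. The 40 genes have a median of 0.027 in the head and 0.64 in the shelves, relatives listed as broadly expressed 0.050 in the shelves, hypoxia-responsive genes 0.80 and skeletal muscle markers -1.11.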

How the data were processed

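Per the labels' protocols, 100 ng of total RNA from dissected tissue was biotin-labelled. The submitters' processing notes name Affymetrix Expression Console and RMA, and the values that the authors deposited are log2 levels of transcript clusters. The software versions, genome build and annotation release were not given in the sources used here. Groups follow the sample titles. 1 other field calls the E13.5 samples heads. The arrays correlated at r = 0.991 in the head and 0.988 in the shelves over all clusters.

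A single gene symbol was listed for 23521 of 41345 clusters, several for 1814 and none for 16010. Clusters with 1 symbol were averaged per gene on the log2 scale. The 40 members (43 clusters) matched RefSeq by Entrez identifier. limma 3.58.1 (R 4.3.3) fitted tissue and genotype with lmFit and eBayes and Benjamini-Hochberg adjustment over all genes whose highest array reached the level for entry. The fit was tested on simulated data. A genotype difference there had the same size in both tissues, and a tissue difference the same size in both genotypes. The fit recovered nearly all such changed genes but made more false calls than the adjusted p allows. Recovery of a difference present in the shelves alone was not simulated. The members and lists were chosen with earlier results of these data known. Levels on all arrays are printed for members at least 2-fold different and, per role group, for the member with the highest, middle and lowest shelf difference, and of other lists for up to 3 genes with the largest difference. A few genes of the lists were not analysed here.

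Alternatives were 3 other scalings, the brightest cluster of a gene, other filters on dim genes, counts from 1.5-fold and 3-fold, the mean, and 3 other priors. Arrays carry no read depth.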

Additional observations from a re-analysis of the deposited data

Results flagged for a closer look

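For 4 members the knockout minus wild-type difference had opposite signs in the head and the shelves, each larger than the SD of the disagreement per cluster (0.175 in the head and 0.226 in the shelves). The same held for 242 of all 10814 genes that entered both comparisons (2.24%). Nefm, Syn1 and Scg3 entered the shelf comparison through the knockout array alone, which fixed the sign of their shelf values. With 1 array per group, the difference between tissues was not tested. Nefm was at -0.33 in the head and at 0.88 in shelves. The head value of Syn1 was -0.23 and its shelf value 0.95. Scg3 was at -0.20 in the head, against 1.11 in shelves. Elavl2 went the other way, at 0.19 in the head and -0.35 in shelves.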

How the results depend on the processing

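The median shelf difference of the members ran from 0.45 to 0.71 over 8 alternatives and kept its sign. The count of 9 members at least 2-fold higher in knockout shelves (0.463% of all genes) was 19 from 1.5-fold (1.91%). It was 4 from 3-fold and 4 with the upper-quartile filter (log2 7.79), where the share over all genes was not computed. With both arrays above the level for entry, an alternative chosen after seeing the data, it was 3 (0.187% of genes). The last also took the count of members past 2-fold between wild-type head and shelves from 30 to 19, since fewer genes enter. Counted from 3-fold, 13 members were higher in the knockout head than in knockout shelves, in place of 24, again without a share over all genes. For genotype, limma with 1 common variance called 8 members in place of 0, all higher in the knockouts (150 of 11999 genes, 1.25%), with Tmem130 at an adjusted p of 3.3e-18. That setting ignores how far a gene's difference varied between tissues. Under the other 8 alternatives 0 members passed, with a smallest adjusted p from 0.256 to 0.997. For tissue, 24 to 36 members passed over 9 alternatives, where 2246 to 4136 of all genes tested passed in either direction. Of 795 recomputed values 783 stayed close, 7 summary counts moved as given, and the other 5 are values of Syt4 and Syp with the brightest cluster. The median head difference had the other sign under 1 of 8 alternatives, at -0.0022. With 1 array per group, no array could be left out, and no paired analysis was possible because each group has 1 array. The number of arrays and the signal near background limit what can be seen of dim genes such as Nefh and Syt4.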

Other observations

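1 further cluster carries Nefm together with A230070E04Rik and was not used for Nefm. It read 6.60 in the wild-type head, 6.50 in the knockout head, 4.57 in wild-type shelves and 5.14 in knockout shelves, a shelf difference of 0.58. Across the 36 members that entered both knockout comparisons, which share no array, the head and shelf differences correlated with r = 0.130 (Pearson) and rho = 0.106 (Spearman), and across 10814 genes r was 0.105 and rho 0.066. These are descriptions across genes, which share the arrays and are not independent replicates.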
